A study of Homo sapiens with 8 samples.

Results

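Binding of the wild-type dominant negative TCF1E (dnTCF1EWT) was compared between 9 h and 2 h of doxycycline induction, using the peak lists of those 2 time points. Each list was ranked by peak score and its top 1000 peaks were taken, so that 2000 of the 23433 peaks of the 6 lists of the series were members. A member was called kept if it overlapped any peak of the other list by any number of bases. Of the 2 h peaks, 475 were kept and 525 were found only at 2 h. Of the 9 h peaks, 390 were kept and 610 were found only at 9 h. A kept region therefore appears as a 2 h peak, as a 9 h peak, or as both.

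The cells were DLD-1, a colon cancer line with active Wnt signaling, carrying FLAG-tagged dnTCF1EWT under a doxycycline-inducible promoter in a line that the labels call clonal. They were grown in doxycycline-free serum with blasticidin and zeocin, and received 1 µg/mL doxycycline for 2 or 9 h. The study also induced dnTCF1Emut, whose C-clamp cannot bind DNA, in a separate DLD-1 line under the same selection, and left cells of both lines untreated (0 h). Those 4 lists are used here only as a reference. Peaks cannot check the identity of the cells, and each line is 1 clone.

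TCF1 belongs to the LEF/TCF family, which brings β-catenin to Wnt target genes. The dominant negative form lacks the β-catenin binding domain and competes with the endogenous factors for their sites. Its HMG box recognizes the Wnt Response Element (WRE), which is CTTTG followed by a pair of A or T and then C or G. The C-clamp of the E-tail recognizes the GC-rich Helper site, which is A or G followed by CCGCC, or the short Helper site, which is A or G followed by CCG. Every Helper site therefore also counts as a short Helper site.

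Promoters of 4 member genes are shown because, by the deposited distance, the peak center lay inside the window that RefSeq gives for them, from 250 bases before to 50 bases after the start of the gene. Of 21 peaks with such a center, 18 had a RefSeq promoter. The start that RefSeq gives can differ from the one behind the deposited distance, so only windows whose motifs could be those counted in the peak were taken, which left 11. The 2 highest-scoring kept peaks and the highest-scoring one of each of the other 2 sets are printed. The sequences are of the GRCh38.p14 build and capitals mark WRE and Helper matches on either strand.
SP5: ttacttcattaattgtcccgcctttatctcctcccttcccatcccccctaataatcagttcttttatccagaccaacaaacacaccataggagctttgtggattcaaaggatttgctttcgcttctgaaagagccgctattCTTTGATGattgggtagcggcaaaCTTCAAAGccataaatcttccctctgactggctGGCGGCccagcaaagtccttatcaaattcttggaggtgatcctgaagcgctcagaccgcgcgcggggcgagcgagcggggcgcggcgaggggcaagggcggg
ING4: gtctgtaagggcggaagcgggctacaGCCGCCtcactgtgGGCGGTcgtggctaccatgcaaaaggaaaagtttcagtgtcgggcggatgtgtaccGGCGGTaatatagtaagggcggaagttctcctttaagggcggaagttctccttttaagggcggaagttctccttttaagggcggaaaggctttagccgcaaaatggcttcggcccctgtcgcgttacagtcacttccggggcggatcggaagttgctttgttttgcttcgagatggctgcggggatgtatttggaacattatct
C10orf90: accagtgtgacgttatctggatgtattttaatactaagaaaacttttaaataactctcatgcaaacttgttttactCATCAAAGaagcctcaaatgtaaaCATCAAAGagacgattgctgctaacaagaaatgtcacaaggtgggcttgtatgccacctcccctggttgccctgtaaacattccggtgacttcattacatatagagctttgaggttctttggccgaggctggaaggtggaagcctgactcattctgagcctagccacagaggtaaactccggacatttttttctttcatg
MIR663AHG: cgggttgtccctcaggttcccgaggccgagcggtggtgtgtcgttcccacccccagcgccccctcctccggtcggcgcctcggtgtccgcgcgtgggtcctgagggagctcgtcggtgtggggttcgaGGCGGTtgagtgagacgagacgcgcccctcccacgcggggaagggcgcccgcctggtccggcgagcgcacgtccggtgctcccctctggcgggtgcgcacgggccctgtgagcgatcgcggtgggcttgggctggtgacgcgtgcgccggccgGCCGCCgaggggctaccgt

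The SP5 promoter (kept) held 2 WREs, 1 Helper site and 5 short Helper sites in its 300 bases. ING4 encodes a chromatin reader, and its promoter (kept) held no WRE, 3 Helper sites and 7 short Helper sites. The ING4 peak scored 477.36 at 2 h and 70.24 at 9 h. The promoter of C10orf90 (only 2 h) held 2 WREs, no Helper site and 2 short Helper sites, whereas its peak, which scored 119.88, held no WRE by the deposited counts. The promoter of the noncoding gene MIR663AHG (LOC284801 in the files, only 9 h) held no WRE, 2 Helper sites and 17 short Helper sites, and its peak scored 184.36. Over all 35116 RefSeq promoters of this length, 6.62% held a WRE, 41.6% a Helper site and 78.3% a short Helper site. A match is a description of the letters and not of an occupied site. The peaks are on the hg19 build, so the printed windows are not the sequences of the peaks.

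The deposited files give 1 list per condition, made from pooled duplicates, so that no spread between replicates exists and no test was run. The 95% intervals below (Wilson for shares, Newcombe for differences) cover counting error over peaks only. The 2 h list held 5585 peaks and the 9 h list 12996, both with a lowest score of 50.01. The score is that of MACS, a log-scaled P-value that grows with sequencing depth, and the depth is unknown. The 2 h top 1000 ended at a score of 93.40 (rank 1001: 93.37), and the 9 h top 1000 at 83.35 (rank 1001: 83.34). Any difference between 2 and 9 h cannot be told apart from a difference between the pooled libraries.

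The strongest 2 h regions were mostly still listed at 9 h, and retention fell along the ranking. Among the top 1000, 47.5% of the 2 h peaks (44.4 to 50.6) overlapped a 9 h peak, and 39.0% of the 9 h peaks (36.0 to 42.1) overlapped a 2 h peak. Over the whole lists the shares were 14.9% of 2 h peaks and 6.47% of 9 h peaks. In the 2 h list, 92 of the first 100 peaks were kept, 55 of ranks 201 to 300 and 30 of ranks 901 to 1000. In the 9 h list the same bins held 72, 58 and 13 kept peaks. Of the 475 kept 2 h peaks, 299 (62.9%) overlapped a 9 h peak that was itself in the 9 h top 1000. The first 100 of both lists shared 34 regions, counted over 2 h peaks.

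**Figure D1:**
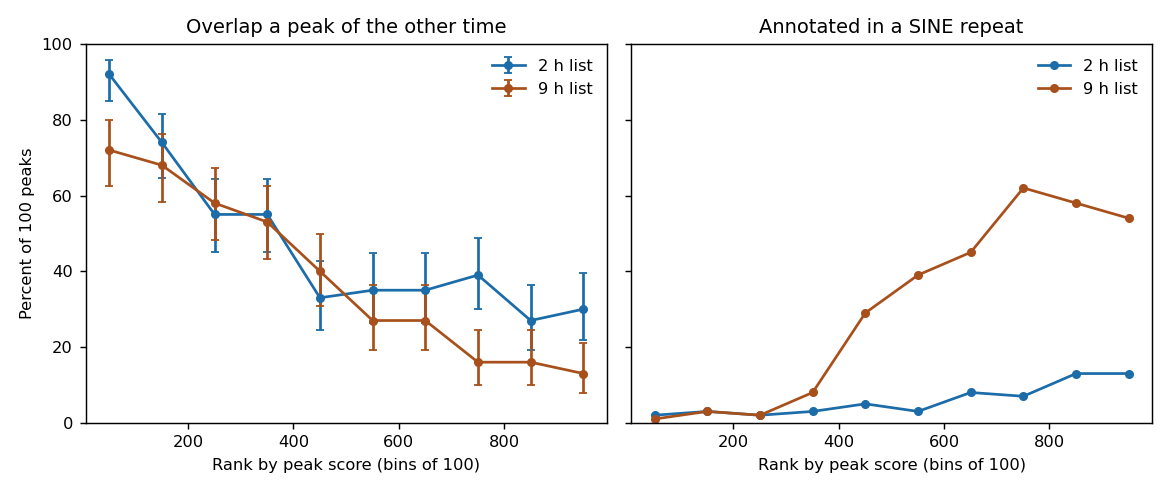
Left, percent of peaks in each bin of 100 ranks (x axis, rank by peak score) that overlap a peak of the other time, with Wilson 95% intervals. Right, percent annotated in a SINE repeat. Retention fell from 92 to 30 per 100 in the 2 h list and from 72 to 13 in the 9 h list, while SINE peaks in the 9 h list rose from 1 to 54 per 100.

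Regions found at only 1 time were mostly far from any peak of the other list. The median distance from the center of an only 2 h peak to the nearest 9 h peak center was 61896 bp (quartiles 21870 and 134392), and 85 of 525 (16.2%) had one within 10 kb. For only 9 h peaks the median distance to a 2 h peak was 133940 bp (quartiles 46529 and 306518), and 56 of 610 (9.18%) had one within 10 kb. Only 2 of the only 2 h peaks and 7 of the only 9 h peaks had a center within 1 kb of one in the other list. The lists differ in length, which also sets these distances.

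The highest kept region lay 8341 bp downstream of the NELF start (now NSMF), at chr9:140344686-140346205 in an intron, with 6 WREs. Its score was 3217.62 at 2 h and 2003.03 at 9 h, ranks 1 and 3. A peak 149268 bp from ASMT, the last enzyme of melatonin synthesis, followed with a score of 3100.0. It was listed at the same length on X and Y, in the pseudoautosomal region, and is 1 region deposited on 2 chromosomes, with 54 short Helper sites and neither a WRE nor a Helper site. The intronic CDX2 peak at chr13:28539957-28540612 scored 1835.07 at 2 h and 438.22 at 9 h. CDX2 is a homeobox factor of intestinal identity, and the peak held 1 WRE and 2 Helper sites. Near RPTOR, a subunit of the mTORC1 kinase complex, a peak with 2 WREs and 1 Helper site scored 1278.08 and then 235.15. At 9 h the ASMT region scored 439.75 on X and 932.15 on Y, so its ratio is uncertain. All 10 of the highest kept 2 h peaks, which count both ASMT copies, had a lower score at 9 h, with a median log2 ratio of -2.25. They were chosen by their 2 h score, and 7 of the 10 also overlapped a dnTCF1Emut 2 h peak, beside 38.7% of all kept 2 h peaks.

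Over the 475 kept 2 h peaks the median score was 233 at 2 h and 103 at 9 h. The median log2 ratio of the 9 h to the 2 h score was -1.10 (95% interval of the median -1.23 to -1.0, quartiles -1.83 and -0.51). The 9 h score was at least 2-fold lower at 260 of the 475 regions and at least 2-fold higher at 13. Over the 833 overlapping 2 h peaks of the whole list, 31.2% were at least 2-fold lower and 5.04% at least 2-fold higher. The 31.2% are the same 260 peaks. Overlapping 2 h peaks outside the 475 scored at most 93.37, and no listed 9 h peak scored below 50.01. None of them could therefore be listed at least 2-fold lower, so the 31.2% is no reference for the falls. Because the 475 regions were taken for a high 2 h score, part of the direction of their change is fixed by the choice. Taken by their 9 h score instead, the 390 kept 9 h peaks had a median log2 ratio of -0.42, and 148 of them (37.9%) scored higher at 9 h. On the percentile of rank within each list the median change at the kept 2 h peaks was -0.01 percentile points (-0.47 to 0.46). The percentile is taken within lists of different length, so an equal percentile is a later rank at 9 h. Across the 475 regions the scores at the 2 times had a Spearman rho of 0.39, over points that share 2 pooled libraries.

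**Figure D2:**
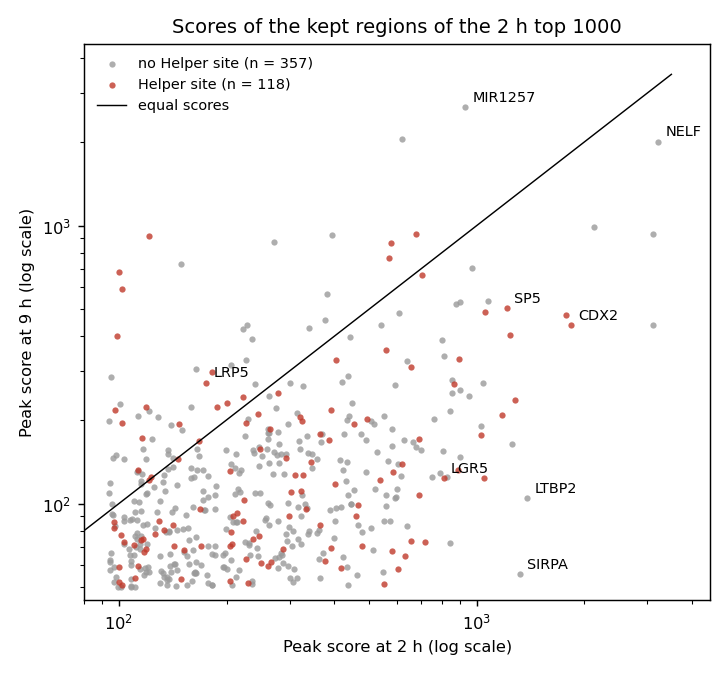
Peak score at 9 h (y axis) against 2 h (x axis), both on log scales, for the 475 kept 2 h peaks. Red points hold a Helper site (118), gray points do not (357), and the line marks equal scores. Most points lie below the line, and 61 lie above it.

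The medians of the motif classes lay close together. Kept 2 h peaks with a Helper site had a median log2 ratio of -1.14 (n = 118) and those without one -1.09 (n = 357). Peaks with a WRE had -1.09 (n = 251) and those without one -1.11 (n = 224). The 30 peaks with 3 or more Helper sites had a median of -0.67 (quartiles -1.34 and 0.16), and 8 of them (26.7%) scored higher at 9 h, against 12.8% of all kept 2 h peaks. These 8 include the peaks near LOC100133920, MIR4436A and FOXD4L4, in duplicated parts of the genome. They also include several peaks near INTS4L1 and INTS4L2, so they are not 8 independent regions. The part of the Helper sites in this share was not tested. By rank the medians were -2.01 for the first 100 peaks, -1.36 for ranks 101 to 500 and -0.59 for ranks 501 to 1000. Peaks also listed for dnTCF1Emut at 2 h had a median of -1.39 (n = 184) and a median 2 h score of 318, and the other 291 had -0.96 and a score of 187. These groups also differ in their 2 h score, and the part of the score in the difference was not tested. A kept peak cannot score below 50.01 at 9 h, so a lower 2 h score leaves less room for a fall. The lowest log2 ratio was -4.57 in the first 100 ranks and -1.61 in ranks 501 to 1000. The rank and dnTCF1Emut differences are thus partly set by this limit.

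The largest falls were near SIRPA, which encodes an inhibitory receptor of myeloid cells, and LTBP2, which encodes a matrix protein. The SIRPA peak (chr20:1820139-1820844) held 11 WREs and went from 1321.26 at 2 h to 55.66 at 9 h, or from rank 8 to rank 7279. The LTBP2 peak went from 1381.97 to 104.57 and from rank 7 to 512. Falls of similar size were seen near CXADR, a cell adhesion receptor (844.72 to 72.31), and BCAT1, an enzyme of branched-chain amino acid metabolism (603.38 to 58.09). Near RHOB, a small GTPase, the score went from 656.14 to 73.14. Of the 10 largest falls, 8 peaks held a WRE, 5 a Helper site and 7 overlapped a dnTCF1Emut 2 h peak. The shares over all kept 2 h peaks were 52.8%, 24.8% and 38.7%. The median 2 h score of the 10 was 644, beside 233 for all kept 2 h peaks. A fall this large needs a high 2 h score, so the motif and overlap counts also reflect how the 10 were chosen. The 9 h scores of the 10, with a median of 61.4, were close to the lowest score of the list.

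The largest rises were at regions of 2 kinds. Peaks near LOC100133920, MIR4436A and FOXD4L4 were annotated as CpG islands with a GC content of 68.3 to 69.9%, each with 8 Helper sites and no WRE. Their scores went from 121.26 to 918.15, from 100.09 to 681.55 and from 102.22 to 594.05. These loci lie in duplicated parts of the genome, where reads can match several copies, so their scores are uncertain. The others were near or within named genes. SYK, a signaling kinase of immune cells, had an upstream peak that went from 617.06 to 2055.92 and an intronic peak with 3 WREs that went from 148.82 to 729.78. A peak with 10 WREs near MIR1257 went from 930.46 to 2671.85 and was the highest of the 9 h list. Near UHRF1, a reader of hemimethylated DNA, a peak 683 bp from the start with 1 WRE and 1 Helper site went from 98.72 to 401.64. Intronic peaks in RANBP10 and ZNF638 went from 271.66 to 874.16 and from 394.91 to 924.83.

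The top only 2 h region was an intronic peak 12293 bp from NOSIP, a protein that binds nitric oxide synthases, at chr19:50071156-50071865 with a score of 771.84 (rank 40). Peaks in introns of C10orf11 (now LRMDA, 652.6) and of MME, a membrane metalloprotease (573.23), each held 3 WREs. The promoter peak of YAP1, the coactivator of the Hippo pathway, lay 519 bp upstream at chr11:101982281-101983023 with a score of 494.43, no WRE, 1 Helper site and 10 short Helper sites. Of the 10 highest only 2 h peaks, 7 overlapped a dnTCF1Emut 2 h peak, 5 held a WRE and 2 a Helper site. The shares over all only 2 h peaks were 36.4%, 48.6% and 14.3%. Only 1 of the 10, near LLPH, held none of the 3 motifs.

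The top only 9 h region lay in an intron 26025 bp from the ARPC5L start, at chr9:127657120-127657898. ARPC5L is a subunit of the actin-nucleating Arp2/3 complex, and the peak scored 1727.87 (rank 4) with 5 WREs. The next were near SALL3, a zinc-finger factor (762.36), TDRD12, a germline piRNA factor (717.84), TAF4B, a TFIID subunit (700.43), and KLF4, a zinc-finger factor of gut epithelium (661.67). Of the 10 highest only 9 h peaks, 7 held none of the 3 motifs, 1 held a WRE and none a Helper site. A dnTCF1Emut 2 h peak overlapped 3 of the 10. Over all only 9 h peaks, 22.5% held a WRE, 13.3% held a Helper site and 2.79% overlapped a dnTCF1Emut 2 h peak. The KLF4 peak, a CpG island 227278 bp upstream, held 18 short Helper sites. The peaks near TP53TG3 and MIR548AA2 overlapped a peak of untreated dnTCF1EWT cells, and those near VIPR2, TP53TG3, TAF4B and MIR548AA2 were annotated as simple or low-complexity repeats.

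As sets, a smaller share of only 9 h than of only 2 h regions held a WRE, and a larger share of kept than of only 2 h regions held a Helper site. A WRE was present in 52.8% of kept 2 h peaks, 48.6% of only 2 h peaks, 51.0% of kept 9 h peaks and 22.5% of only 9 h peaks. The share of only 9 h peaks was 26.1 percentage points below that of only 2 h peaks (difference -26.1, -31.4 to -20.6). Over the whole lists a WRE was present in 16.3% of 2 h and 6.56% of 9 h peaks. Kept and only 2 h peaks differed by 4.27 points (-1.93 to 10.4), an interval that includes 0. A Helper site was present in 24.8% of kept 2 h, 14.3% of only 2 h, 23.3% of kept 9 h and 13.3% of only 9 h peaks. All 4 shares were above those of the whole lists, 7.23% of 2 h and 4.83% of 9 h peaks. Kept exceeded only 2 h peaks by 10.6 points (5.65 to 15.5), and by 7.49 with the top 500 peaks of each list, where the interval (-0.241 to 14.7) includes 0. Only 9 h and only 2 h peaks differed by -1.01 points (-5.09 to 3.0). Short Helper sites followed the same order as Helper sites, with 81.7%, 69.5%, 76.7% and 64.6%. The whole-list shares were 54.1% at 2 h and 55.4% at 9 h.

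**Figure D3:**
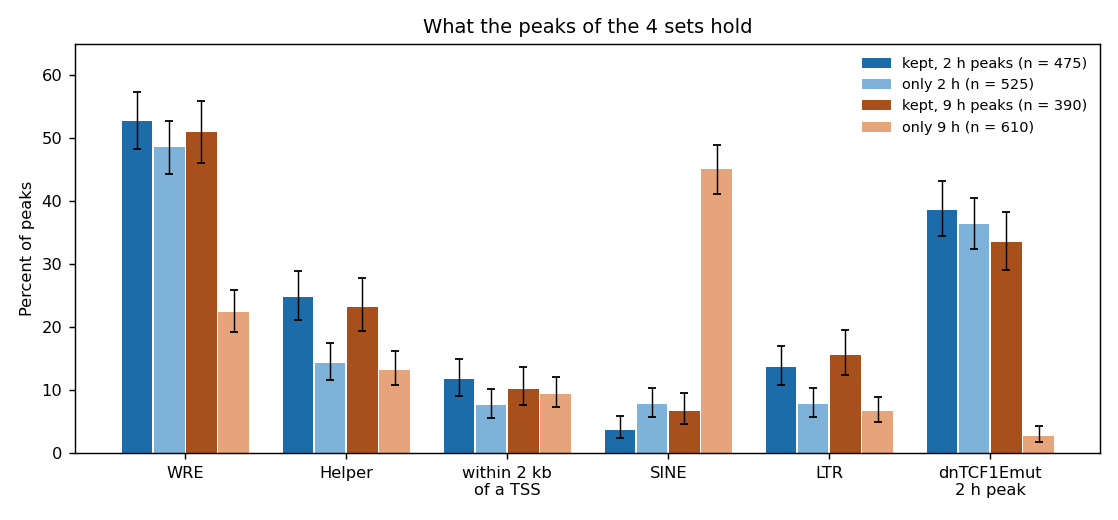
Percent of peaks (y axis) in the 4 sets that hold a WRE or a Helper site, have their center within 2 kb of a TSS, are annotated in a SINE or an LTR repeat, or overlap a dnTCF1Emut 2 h peak. Bars start at 0 and error bars are Wilson 95% intervals. Among these 4 sets of top peaks, the only 9 h set had the lowest share for WREs (22.5%) and overlap with dnTCF1Emut (2.79%) and the highest for SINEs (45.1%), each nearer than the other sets to the share of the whole 9 h list.

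The sets differed in peak length and GC content, which bear on the chance that a peak holds a motif. The median length was 470 bp for kept 2 h, 410 bp for only 2 h and 277 bp for only 9 h peaks. The median GC content was 45.5%, 43.2% and 50.5%, and only 9 h exceeded only 2 h peaks by 7.23 points (6.20 to 8.20). Per kb of covered sequence, WREs numbered 1.79 in kept 2 h, 1.62 in only 2 h and 0.857 in only 9 h peaks. Helper sites numbered 1.25, 0.505 and 1.27 per kb of all covered sequence, and 1.31, 0.569 and 0.844 per kb as a mean over peaks. Within strata of 5% GC, kept 2 h peaks exceeded only 2 h peaks in Helper sites by 5.44 points and the difference between only 9 h and only 2 h peaks was -8.63 points. Within such strata the WRE difference between only 9 h and only 2 h peaks was -16.6 points, and within strata of length it was -12.3.

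SINE repeats, the short interspersed elements that Alu copies dominate in the human genome, were more frequent in the only 9 h set than in the other sets of top peaks, and less frequent than in the 9 h list as a whole. Of 610 only 9 h peaks, 275 (45.1%, 41.2 to 49.0) were annotated in a SINE, and all 275 were Alu elements. By subfamily, 228 were AluS, 29 AluY and 17 AluJ. SINEs made up 7.81% of only 2 h, 3.79% of kept 2 h and 6.67% of kept 9 h peaks, and only 9 h exceeded only 2 h peaks by 37.3 points (32.6 to 41.7). Over the whole lists, SINEs made up 76.2% of 9 h and 49.5% of 2 h peaks. They were rare at the top of the 9 h list (1 of the first 100) and reached 62 of ranks 701 to 800. The median score of the 275 was 91.1 (range 83.3 to 136), their median length 237 bp and their median GC content 51.3%. None was in an exon, 137 were in introns and 138 were intergenic.

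The Alu peaks held 10 WREs in 70.3 kb. A WRE was present in 3.64% and a Helper site in 4.0% of them, but a short Helper site in 66.5%. Without the SINE peaks, the other 335 only 9 h peaks held a WRE in 37.9% and a Helper site in 20.9%. Against the 484 only 2 h peaks outside SINEs, the WRE difference was -12.5 points (-19.2 to -5.59) and the Helper difference 5.81 points (0.514 to 11.3). When the top 1000 peaks outside SINEs were taken from each list instead, the Helper difference was 2.27 points (-2.08 to 6.6), an interval that includes 0. None of the 275 Alu peaks overlapped a dnTCF1Emut peak of any time. A peak of untreated dnTCF1EWT cells overlapped 3 of the Alu peaks (1.09%) and 25 (7.46%) of the 335 other only 9 h peaks. SINEs made up 53.3% of all 1907 peaks of untreated dnTCF1EWT cells, where no dnTCF1E was induced, and 1.27 to 3.39% of the dnTCF1Emut lists. The part in the Alu peaks of whatever gave SINE peaks without induction was not tested.

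**Figure D4:**
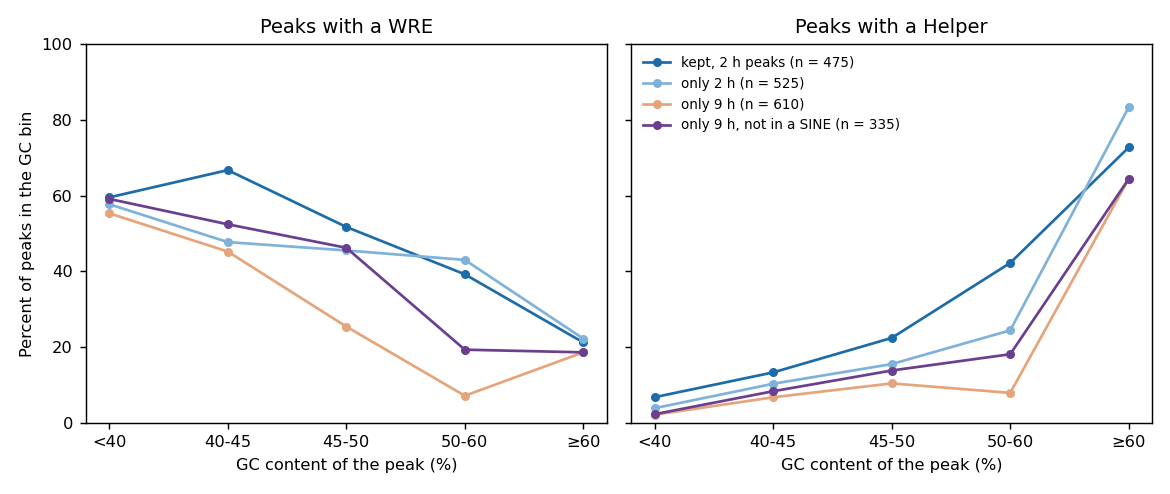
Percent of peaks (y axis) with a WRE (left) or a Helper site (right) in 5 bins of GC content (x axis). Between 50 and 60% GC, 7.14% of only 9 h peaks held a WRE against 43.0% of only 2 h peaks, and 19.3% of only 9 h peaks outside SINEs did.

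At a GC content below 45%, the WRE shares of the only 9 h and only 2 h sets were close. WREs were present in 55.3% of 47 only 9 h peaks below 40% GC and in 57.7% of 156 only 2 h peaks. From 40 to 45% GC the shares were 45.2% of 104 and 47.7% of 155. From 50 to 60% GC they were 7.14% of 266 and 43.0% of 86, and outside SINEs 19.3% of 83 only 9 h peaks. At 60% GC or more a Helper site was present in 72.7% of 33 kept 2 h, 83.3% of 18 only 2 h and 64.4% of 59 only 9 h peaks.

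LTRs, the flanks of endogenous retroviruses, held 13.7% of kept 2 h and 15.6% of kept 9 h peaks, against 7.81% of only 2 h and 6.72% of only 9 h peaks. Kept exceeded only 2 h peaks by 5.87 points (2.04 to 9.81). LTRs also made up 11.8% of all 2 h peaks (11.0 to 12.7) and 6.26% of all 9 h peaks. Of the 65 LTR peaks in the kept 2 h set, 31 were of the ERVK family, and 24 were MER11A, MER11B or MER11C elements. MER11 elements made up 5.05% of kept 2 h peaks (3.42 to 7.41), 0.571% of only 2 h (0.195 to 1.67), 7.18% of kept 9 h and 1.8% of only 9 h peaks, beside 1.63% of all 2 h and 0.916% of all 9 h peaks. Of the 24 kept MER11 peaks, 17 held a WRE, as did all 11 of the only 9 h set. They also made up 3.19% of the dnTCF1Emut 2 h list and 0.105% of the untreated dnTCF1EWT list. Copies of 1 element resemble each other, so these peaks share sequence and are not independent. At 2 h LINEs went the other way, with 4.21% of kept and 8.76% of only 2 h peaks, beside 8.52% of all 2 h peaks. At 9 h they made up 2.82% of kept and 3.93% of only 9 h peaks, beside 2.69% of all 9 h peaks. The kept minus only 9 h difference was -1.11 points (-3.34 to 1.39), an interval that includes 0.

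The intergenic and intronic shares and the median distance to a gene start lay close together in the sets. Intergenic peaks made up 51.6% of kept 2 h, 50.7% of only 2 h and 52.0% of only 9 h peaks, and intronic peaks 39.2%, 43.6% and 40.3%. The median distance to the nearest TSS was 38306 bp, 38495 bp and 33621.5 bp. A center within 2 kb of a TSS was found for 11.8% of kept 2 h peaks and 7.62% of only 2 h peaks, a difference of 4.17 points (0.502 to 7.94). It was found for 9.51% of only 9 h peaks, 1.89 points above only 2 h (-1.43 to 5.14). The whole-list shares were 5.96% at 2 h and 5.15% at 9 h. Outside SINEs the only 9 h share was 15.5%, and 7.88 points above only 2 h (3.46 to 12.6). CpG islands were annotated for 5.05% of kept 2 h, 1.52% of only 2 h and 4.43% of only 9 h peaks. They were annotated for 1.22% of all 2 h and 0.916% of all 9 h peaks.

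The sets also differed in their overlap with dnTCF1Emut. A dnTCF1Emut 2 h peak overlapped 38.7% of kept 2 h, 36.4% of only 2 h, 33.6% of kept 9 h and 2.79% of only 9 h peaks, beside 9.44% of all 2 h and 1.97% of all 9 h peaks. Only 9 h lay below only 2 h peaks by 33.6 points (difference -33.6, -37.9 to -29.3) and outside SINEs the difference was -32.3 points (-37.1 to -27.2). Kept and only 2 h peaks differed by 2.36 points (-3.64 to 8.34). The dnTCF1Emut 9 h list, with 354 peaks, overlapped 11.6% of kept 2 h, 4.38% of only 2 h and 2.30% of only 9 h peaks. By the rule an only 9 h peak lies outside the dnTCF1EWT 2 h list, so its overlap with the other 2 h list is not independent of how it was chosen. Untreated dnTCF1EWT cells had a peak at 1.05% of kept 2 h, 0.190% of only 2 h and 4.59% of only 9 h peaks. The whole-list shares were 1.40% at 2 h and 1.24% at 9 h. Of the only 9 h peaks outside SINEs, 7.46% overlapped such a peak.

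Among genes of the Wnt pathway, established feedback genes were found in all 3 sets. The list of 34 Wnt feedback regulators and direct targets had 18 peaks in the 2 h top 1000, of which 8 were kept and 10 were only 2 h, and 6 only 9 h peaks. The 8 kept peaks all scored lower at 9 h, with a median log2 ratio of -1.32, against -1.10 for all kept 2 h peaks, and 7 of them held a WRE and 5 a Helper site. SP5, a zinc-finger factor and direct Wnt target, had its peak 176 bp upstream of the start at chr2:171571309-171572054, over the promoter printed above. It held 3 WREs and 5 Helper sites and scored 1212.83 at 2 h and 505.79 at 9 h. LGR5, the R-spondin receptor of intestinal stem cells, had an intronic peak 931 bp from the start that went from 809.13 to 123.2.

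AXIN2, the feedback inhibitor that scaffolds β-catenin destruction, had 3 peaks at 2 h and 8 at 9 h. All 3 of 2 h were kept. The distal one, 127448 bp downstream with 5 WREs, went from 449.55 to 230.89, and the intronic one 4234 bp from the start went from 326.54 to 264.36. The peak 483 bp from the start, a CpG island with 1 WRE and 3 Helper sites, went from 205.99 to 79.14. Of the 5 peaks gained at 9 h, 2 were among the top 1000, with 1 WRE each and scores of 145.88 and 140.38. The other 3 scored 51.1, 52.22 and 57.84 and lay in SINEs or a simple repeat. The retained AXIN2 sites thus had lower scores than at 2 h. The added ones all scored below the 2 strongest kept sites, and 2 of them scored above the third kept site (79.14).

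Other direct targets lost the 2 h peaks for which they were the nearest gene. Peaks assigned to another gene of the same locus were not counted for them. MYC, the growth-promoting transcription factor, had a peak 7022 bp downstream of its start with 1 WRE and 1 Helper site and a score of 301.89 at 2 h. At 9 h the only peak nearest to MYC scored 51.1, in a SINE 104616 bp upstream. A peak on the same chromosome assigned to POU5F1B (chr8:128413109-128413550, 1 WRE) was kept and went from 433.69 to 140.73. DKK1, a secreted Wnt inhibitor, had 2 peaks at 2 h (173.52 and 173.06, with 2 WREs and 1 WRE) and none at 9 h. RNF43, the ligase that removes Frizzled receptors, had 3 peaks at 2 h, 1 of them in the top 1000 (133.84), and none at 9 h. MSX2 and TBX3 had other peaks at 9 h, but none that overlapped their 2 h peaks, and TNFRSF19 and NKD2 had none at 9 h. APCDD1, an inhibitor at the Wnt receptor, had an only 9 h peak with 1 WRE (173.97). SOX4 had an only 9 h peak of 236 bp over its exon 1316 bp from the start, with 13 Helper sites, 18 short Helper sites, no WRE and a score of 109.18.

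**Figure D5:**
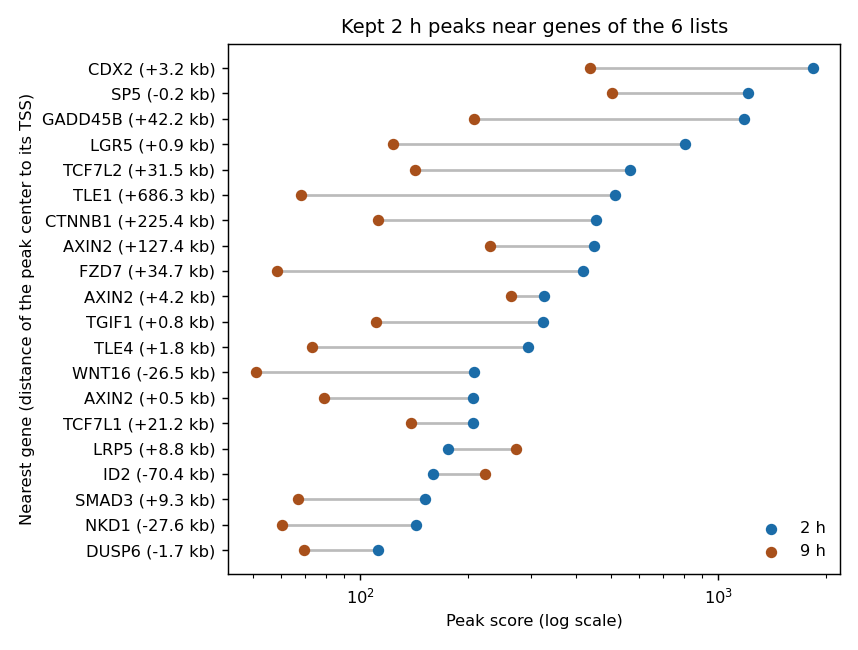
Peak scores (x axis, log scale) at 2 h (blue) and 9 h (orange) of the 20 kept 2 h peaks nearest to a gene of the 6 lists, with the distance to its TSS. The 9 h score was lower at 18 of the 20 and higher at LRP5 and ID2.

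Among the transcription factors and corepressors of the pathway, TCF7L2, the main TCF of the gut, had an intronic peak without a WRE that went from 565.45 to 142.36. TCF7L1 went from 205.94 to 138.85. The Groucho corepressors TLE1 and TLE4 went from 513.67 to 68.35 and from 294.76 to 73.22. TLE3 had an only 9 h promoter peak, 628 bp upstream, with 2 WREs and 1 Helper site (100.37). Of the signal transducers, CTNNB1, which encodes β-catenin, had a distal peak with 2 WREs that went from 455.19 to 112.07. The Wnt coreceptor LRP5 had an intronic peak with 1 WRE and 1 Helper site that went from 175.75 to 271.87 and from rank 469 to 82. AXIN1 and CSNK1A1, of the destruction complex, had only 2 h peaks.

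In the BMP and TGF-β pathway, 3 kept, 7 only 2 h and 5 only 9 h peaks were counted. ID2, a BMP target that inhibits helix-loop-helix factors, had a peak 70421 bp upstream with 1 WRE that went from 159.47 to 223.0. A peak nearer to it, 4169 bp upstream, went from 59.81, outside the 2 h top 1000, to 206.38. TGIF1, a corepressor of SMADs, went from 323.78 to 110.75. SMAD7, the inhibitory SMAD, had an only 2 h peak 1573 bp upstream with 2 WREs (268.38), and GREM1, a BMP antagonist, an only 2 h peak in an intron (292.75). TGFBR2 had 2 only 2 h and 2 only 9 h peaks at different places. Both BMP2 peaks and the BMPR2 peak of the only 9 h set were in Alu elements.

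The list of growth-signal early response genes had 2 kept, 6 only 2 h and 3 only 9 h peaks. GADD45B, a stress-induced gene, had a peak 42187 bp away with 2 Helper sites and no WRE that went from 1176.77 to 208.2. SPRY1, an inhibitor of receptor tyrosine kinase signaling, had 2 only 2 h peaks with 2 WREs each, and AREG, an EGF receptor ligand, had an only 9 h peak with 2 WREs (136.21). The 19 cell-cycle regulators had no peak in the 2 h top 1000. Their 3 only 9 h peaks, near CDC25A and CCNE1 (92.68, 90.36 and 89.89), were all in Alu elements and held neither a WRE nor a Helper site.

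Over the 6 lists together, 20 of the 46 peaks of the 2 h top 1000 were kept, beside 47.5% of all 1000 peaks. The median log2 ratio of the 20 was -1.46 beside -1.10 for all kept 2 h peaks. Their median 2 h score was 325 beside 233, so the ratios are not compared at equal 2 h scores. Nearest genes shared between the sets were counted without the share between the whole lists, so the counts have no reference. Of 489 nearest genes of only 2 h peaks and 571 of only 9 h peaks, 27 were shared, which is 5.52% and 4.73%. Kept 2 h and only 2 h peaks shared 44 genes, 9.93% of 443 and 9.00% of 489. Kept 2 h and only 9 h peaks shared 24, 5.42% and 4.20%. EDAR, a receptor of the TNF family, had an only 2 h peak (308.35) and an only 9 h peak (126.28) in introns. The pairs near PDZK1P1 and FCGR2A are in duplicated regions and are uncertain.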

How the data were processed

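ChIP-seq with anti-FLAG beads in DLD-1 cells gave the 2 and 9 h lists of dnTCF1EWT that were compared. Per the paper, the authors called peaks on merged duplicates, whereas the labels describe single libraries as first replicates. The submitters' processing notes name Bowtie2 2.0.0, CASAVA 1.8.2, MACS 1.3 and HOMER 3.16 and the hg19 build. How reads in repeats were placed is not given in the sources used here. The deposited peak score is the MACS score, the deposited GC content is a fraction printed here in percent, and the motif columns were counted by the authors with HOMER. The deposited BED and annotation files agreed at all 23433 peaks in position and score. Depth is unknown.

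Peaks were ranked by score, and overlaps used the highest-scoring peak of the other list. Peaks were assigned to promoters if a TSS lay no more than 2 kb from the center. Differences within strata of GC, score or length were weighted by Mantel-Haenszel. Overlap, intervals and strata were tested on simulated data. Genes named were the 10 highest peaks of each set, peaks nearest to genes of 6 lists, the 10 largest rises and falls, and 10 genes shared by only 2 h and only 9 h peaks. The members and lists were chosen with earlier results of these data known. Symbols follow the files, with current names from RefSeq by gene ID. Input libraries were not used here, and 1 named gene is not reported here. Software was pandas 2.3.3, NumPy 2.4.6, matplotlib 3.10.9 and SciPy 1.17.1 under Python 3.11.15.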

Additional observations from a re-analysis of the deposited data

How the results depend on the processing

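Of 71 alternative values for 9 results, none reversed a direction whose interval excluded 0. No paired analysis was possible because each condition is 1 pooled list. The depth of the libraries is unknown. With the top 500 peaks, 61.8% of 2 h and 58.2% of 9 h peaks were kept, the median log2 ratio was -1.56, and the only 9 h minus only 2 h difference was -16.3 points for WREs and 5.51 for GC content. With the top 2000 these values were 30.6%, 24.2%, -0.75, -16.8 and 4.73, and the kept minus only 2 h WRE difference was 17.7 points. With scores of 100 or more, 54.3% of 9 h peaks were kept, and the differences between only 9 h and only 2 h peaks were -17.8 for WREs, 4.26 for Helper sites and 5.84 for GC content. Requiring 50% overlap of both peaks gave 36.3% and 34.1% kept and a ratio of -0.92. On rank percentiles the change was -0.01. Within strata of GC, the differences were -16.6 for WREs, 5.44 (kept minus only 2 h) and -8.63 (only 9 h minus only 2 h) for Helper sites, and -1.46 for promoters, and within strata of length -12.3 for WREs. Without peaks in SINEs, an alternative chosen after seeing the data in which the top 1000 were taken again, 44.3% of 9 h peaks were kept, and the differences between only 9 h and only 2 h peaks were -18.4 for WREs, 7.68 for promoters and 5.33 for GC content. The cause of these changes was not tested, beyond the fewer or other peaks that each alternative takes. The other 43 values, which include all those without peaks of untreated cells, on autosomes and for centers within 1 kb, lay inside the intervals of the main values.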
